A study of Mus musculus with 4 samples.

Results

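The 56 genes described here were selected from 20711 genes compared between sorted fractions of the mouse retina, because each was higher in both libraries labelled Ezh2-cKO than in the matching WT libraries and reached its highest level in the Cd73-positive (Cd73P) library labelled Ezh2-cKO. The selection required (FPKM + 1) in Ezh2-cKO over WT of at least 1.5 in the Cd73-negative (Cd73N) and in the Cd73P fraction, and a higher FPKM in Cd73P than in Cd73N of the libraries labelled Ezh2-cKO. FPKM scales the fragments of a gene by exon length and by library total, so levels of different genes can be set side by side. The values of all 4 libraries chose the genes, so their rises and their order are given as a description and no test was made on them. Changes are log2 ratios of (FPKM + 1), which understate the change of weakly expressed genes, and a 1.5-fold ratio is 0.58 on that scale.

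The retinas came from slc:ICR mice at postnatal day 12 and were dissociated, stained for Cd73 and sorted by flow cytometry before poly(A) RNA was sequenced. The 4 groups were Cd73N and Cd73P cells of WT retina and Cd73N and Cd73P cells of Ezh2-cKO retina, with 1 library each. Ezh2-cKO mice carried a floxed Ezh2 allele together with DKK3-Cre, a driver that acts in retinal progenitors early in the embryo and is therefore limited to neither fraction, and the controls were normal littermates. Whether retinas were pooled for sorting at this age, and how many, was not given in the sources used here. With 1 library per group the differences could not be checked against replicates, and every standard error (SE) given below was derived from the deposited FPKM bounds and covers counting error only.

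Ezh2 is the catalytic subunit of Polycomb repressive complex PRC2, which places the repressive H3K27me3 mark on genes that a cell lineage keeps silent, among them many homeobox genes. Cd73, the product of Nt5e, is a surface nucleotidase carried by rod photoreceptors and their precursors, whereas Müller glia, bipolar cells, amacrine cells and cones are found mainly among Cd73N cells.

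The labels were checked first. Ezh2 was at 14.1 FPKM in Cd73N WT, 15.9 FPKM in the Cd73N library labelled Ezh2-cKO, 5.38 FPKM in Cd73P WT and 3.45 FPKM in the Cd73P library labelled Ezh2-cKO. The log2 ratio was 0.17 (SE 0.056) in Cd73N, which goes against the label, and -0.52 (SE 0.080) in Cd73P. A gene-level FPKM counts reads of every exon and does not show whether the floxed part was lost. Nt5e was at 0.844 and 0.609 FPKM in Cd73N and at 125 and 123 FPKM in Cd73P, in the order WT and labelled Ezh2-cKO, so the fraction labels held. Xist was higher in both libraries labelled Ezh2-cKO (52.2 and 240 FPKM in Cd73N, 47.0 and 95.6 FPKM in Cd73P), while 4 Y-linked genes together were at 26.8 and 27.9 FPKM in the WT libraries and at 0.716 and 0.496 FPKM in those labelled Ezh2-cKO. The part of this sex-linked difference in the rises was not tested. Depth relative to Cd73N WT, inferred from the deposited bounds, lay between 0.9996 and 1.17, and absolute depth is unknown.

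Promoters are shown for members on which the results turn: Six4 and Tmem30b, which lie 443 kb apart on chromosome 12 and were low in both WT libraries, Ptprn and Stk35, whose order between the fractions turned, and Frmpd1 and Vax2os1, which were among the highest. The sequences are RefSeq entries on build GRCm38.p6, hold the 250 bases before the annotated start, and run 5′ to 3′ on the strand of the gene. The single Vax2os entry was matched to both Vax2os1 and Vax2os2, whose listed ends differ. It therefore need not be the promoter of Vax2os1. Capitals mark CpG dinucleotides, the sequence feature typical of promoters that PRC2 occupies.
Six4 (chr12:73113426-73113675, minus strand): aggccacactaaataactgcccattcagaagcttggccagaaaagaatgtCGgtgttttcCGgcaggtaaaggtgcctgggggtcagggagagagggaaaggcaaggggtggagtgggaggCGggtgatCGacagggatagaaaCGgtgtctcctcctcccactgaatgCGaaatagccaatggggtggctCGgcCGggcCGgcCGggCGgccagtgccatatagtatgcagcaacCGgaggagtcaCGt
Tmem30b (chr12:73546396-73546645, minus strand): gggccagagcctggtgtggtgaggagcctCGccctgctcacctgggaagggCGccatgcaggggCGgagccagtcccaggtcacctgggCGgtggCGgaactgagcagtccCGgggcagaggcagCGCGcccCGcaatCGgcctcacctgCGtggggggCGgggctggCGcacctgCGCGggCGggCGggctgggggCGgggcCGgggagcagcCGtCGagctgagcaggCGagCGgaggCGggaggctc
Ptprn (chr1:75264209-75264458, minus strand): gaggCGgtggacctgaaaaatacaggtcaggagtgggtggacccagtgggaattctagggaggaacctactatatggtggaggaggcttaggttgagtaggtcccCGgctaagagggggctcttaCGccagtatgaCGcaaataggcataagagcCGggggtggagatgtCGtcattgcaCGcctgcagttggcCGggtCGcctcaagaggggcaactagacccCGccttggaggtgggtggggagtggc
Stk35 (chr2:129800267-129800516, plus strand): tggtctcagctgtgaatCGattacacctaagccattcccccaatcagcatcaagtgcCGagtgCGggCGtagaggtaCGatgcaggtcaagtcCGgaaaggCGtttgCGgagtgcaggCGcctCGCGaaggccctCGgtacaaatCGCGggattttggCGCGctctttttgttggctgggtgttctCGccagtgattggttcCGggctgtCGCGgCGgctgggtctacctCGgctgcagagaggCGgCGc
Frmpd1 (chr4:45184656-45184905, plus strand): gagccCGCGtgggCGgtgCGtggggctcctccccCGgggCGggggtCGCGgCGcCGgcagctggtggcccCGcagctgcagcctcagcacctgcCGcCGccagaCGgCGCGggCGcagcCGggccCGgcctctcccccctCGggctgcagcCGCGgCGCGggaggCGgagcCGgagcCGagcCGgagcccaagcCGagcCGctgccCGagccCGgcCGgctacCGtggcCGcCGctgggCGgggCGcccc
Vax2os, the RefSeq gene matched to Vax2os1 (chr6:83712202-83712451, minus strand): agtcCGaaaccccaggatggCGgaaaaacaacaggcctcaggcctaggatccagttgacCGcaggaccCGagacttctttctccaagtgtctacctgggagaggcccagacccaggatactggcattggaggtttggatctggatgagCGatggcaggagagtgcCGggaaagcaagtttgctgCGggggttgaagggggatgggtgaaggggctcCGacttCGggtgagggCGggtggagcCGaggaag

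These windows differed widely in CpG content. Frmpd1 held 38 CpG in 250 bases and Stk35 and Tmem30b held 24 each, against 13 in Six4, 11 in Vax2os and 10 in Ptprn. Over windows of 300 bases, which reach 50 bases past the start, the observed number of CpG over that given by the C and G content was 0.936 in Stk35, 0.884 in Frmpd1, 0.717 in Tmem30b, 0.640 in Six4, 0.612 in Vax2os and 0.538 in Ptprn. The median of 16138 RefSeq promoters of the same length was 0.611, so Ptprn was below it, Vax2os was next to it and the other 4 were above. A promoter entry was found for 39 of the 56 members (69.6%), too few for a statement on the members as a group, and that check is void.

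Selection left 172 genes that were at least 1.5-fold higher in both fractions, of which the 56 members were higher in Cd73P and 116 were not. At least 1.5-fold higher values were found for 7.28% of all genes in Cd73N, for 2.31% in Cd73P and for 0.83% in both. The rule used these contrasts, so all 56 members pass them and nothing is read from that. The members' log2 ratios started at 0.59 in both fractions and had a median of 0.84 in Cd73N and of 1.04 in Cd73P, where the median of all genes was 0 in both fractions. The rise was at least 2-fold for 14 members in Cd73N, for 29 in Cd73P and for 12 in both. Levels in the Cd73P library labelled Ezh2-cKO ran from 0.814 to 89.0 FPKM, with 18 members at 20 FPKM or more and 40 at 5 FPKM or more. The members lay on 16 chromosomes and comprised 47 protein-coding genes, 2 long intergenic RNAs, 1 processed transcript and 1 pseudogene of the GENCODE annotation, while 5 had no unique name there.

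**Figure D1:**
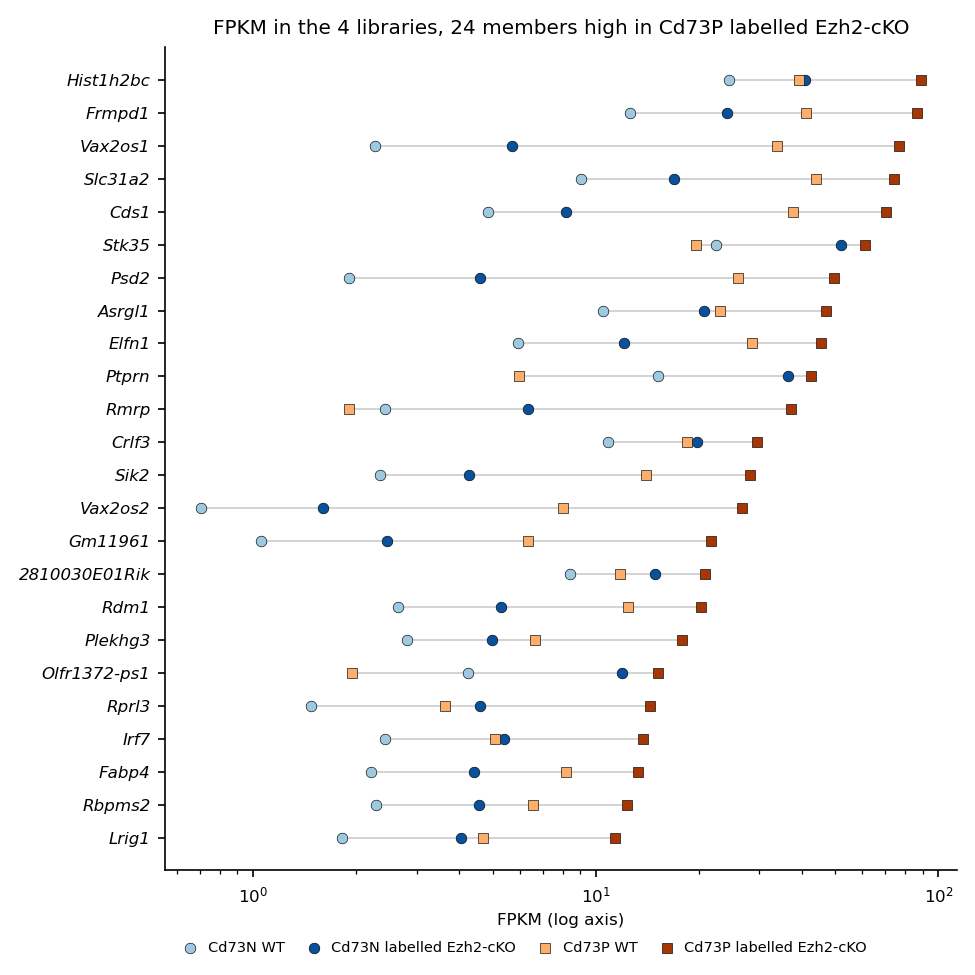
FPKM (log axis) of 24 of the 25 members with the highest level in the Cd73P library labelled Ezh2-cKO, with 1 point per library and a grey line over their range. The dark square is at the right end in every line because the rule chose the genes so, and for Rmrp it stands far from the other points, at 37.2 FPKM against 1.91 to 6.33 FPKM.

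Six4, a homeobox transcription factor (mm9 chr12:74201246-74214232, minus strand), was a member at a low level. It was at 0.130 FPKM in Cd73N WT, 0.791 FPKM in Cd73N labelled Ezh2-cKO, 0.011 FPKM in Cd73P WT and 0.814 FPKM in Cd73P labelled Ezh2-cKO. The 2 libraries labelled Ezh2-cKO were nearly equal and both WT libraries were low, with log2 ratios of 0.66 (SE 0.052) and 0.84 (SE 0.049). Tmem30b, a subunit of phospholipid flippases (mm9 chr12:74644101-74647382, minus strand), lay 443 kb from Six4. Tmem30b was at 0.063 and 1.04 FPKM in Cd73N and at 0.276 and 2.09 FPKM in Cd73P, so both WT libraries were again the lowest. Frmpd1 and Tmod1 (854 kb) and the overlapping Vax2os2 and Vax2os1 (9.30 kb) were other pairs of members that lay within 1 Mb of each other.

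Further transcription factors among the members were Tshz2, Irf7 and Bcl6. Tshz2, a teashirt zinc finger protein, was at 4.77 FPKM in Cd73N WT, 8.13 FPKM in Cd73N labelled Ezh2-cKO, 1.45 FPKM in Cd73P WT and 9.11 FPKM in Cd73P labelled Ezh2-cKO. In WT it was higher in Cd73N, whereas in those labelled Ezh2-cKO the fractions were close, so the log2 ratio was 0.66 (SE 0.058) in Cd73N and 2.05 (SE 0.064) in Cd73P. It overlaps Gm16898, an antisense gene, and these reads cannot be told apart without strand. Bcl6, a zinc finger repressor known from germinal centre B cells, stayed at or under 2.14 FPKM in all libraries.

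Irf7, the interferon regulatory factor that drives type I interferon genes, was at 2.43 FPKM in Cd73N WT, 5.41 FPKM in Cd73N labelled Ezh2-cKO, 5.07 FPKM in Cd73P WT and 13.7 FPKM in Cd73P labelled Ezh2-cKO. Its level was higher in Cd73P than in Cd73N in both genotypes. Among 19 interferon response genes, 9 were at least 1.5-fold higher in Cd73N and 2 in Cd73P, and none was lower by that ratio in either fraction. Bst2, a membrane protein that tethers viruses, was the other gene past the threshold in Cd73P, at 0.232 FPKM in WT and 0.934 FPKM in the library labelled Ezh2-cKO. The list's median log2 ratio was 0.58 in Cd73N and 0.090 in Cd73P. Markers of microglia, 12 genes summed, were at 156 FPKM in Cd73N WT, 235 FPKM in Cd73N labelled Ezh2-cKO, 45.0 FPKM in Cd73P WT and 51.9 FPKM in Cd73P labelled Ezh2-cKO, with 6 of 12 past the threshold in Cd73N and 0 in Cd73P. Their part in the Irf7 values was not tested.

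Stk35, Sik2 and Ripk4 encode kinases. Stk35, a mostly nuclear serine/threonine kinase, was at 22.4 FPKM in Cd73N WT, 52.0 FPKM in Cd73N labelled Ezh2-cKO, 19.6 FPKM in Cd73P WT and 61.2 FPKM in Cd73P labelled Ezh2-cKO. It was the member with the highest FPKM in the Cd73N library labelled Ezh2-cKO, and its WT levels were similar in the 2 fractions. The log2 ratio was 1.18 (SE 0.027) in Cd73N and 1.59 (SE 0.028) in Cd73P. Sik2, a salt-inducible kinase that phosphorylates CREB coactivators, was at 2.34, 4.26, 13.99 and 28.2 FPKM in the same order of libraries. It was mainly a Cd73P transcript in both genotypes. Ripk4, a kinase of epidermal differentiation, was at 0.206, 1.48, 0.579 and 3.44 FPKM and so remained a weak transcript.

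Exchange factors for small GTPases were represented by Plekhg3 and Psd2. Psd2, which acts on ARF GTPases, was at 1.90 FPKM in Cd73N WT, 4.60 FPKM in Cd73N labelled Ezh2-cKO, 26.1 FPKM in Cd73P WT and 49.5 FPKM in Cd73P labelled Ezh2-cKO. Plekhg3, which carries a pleckstrin homology domain, was at 2.81 FPKM, 4.96 FPKM, 6.66 FPKM and 17.9 FPKM in that order. Psd2 rose by nearly the same log2 ratio in both fractions (0.95 and 0.90), whereas Plekhg3 rose more in Cd73P (0.65 and 1.30). Fgf2, a growth factor known to be raised in stressed photoreceptors, was at 0.175 FPKM in Cd73N WT, 1.14 FPKM in Cd73N labelled Ezh2-cKO, 1.24 FPKM in Cd73P WT and 6.92 FPKM in Cd73P labelled Ezh2-cKO. The Cd73P library labelled Ezh2-cKO stood well above the other 3 libraries for Fgf2, which overlaps the antisense gene Gm12541. Lrig1, a transmembrane inhibitor of EGF receptors, was at 1.82, 4.05, 4.69 and 11.4 FPKM in the order of libraries used above.

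Of 27 genes of stress and degeneration, Fgf2 was the single member. In Cd73N 12 of the 27 were at least 1.5-fold higher and 2 lower, in Cd73P 6 were higher and 3 lower, and 4 were higher in both. The list's median log2 ratio was 0.39 in Cd73N and 0.15 in Cd73P. Müller glia markers moved in the same direction, with 21 of 21 past the threshold in Cd73N and 16 of 21 in Cd73P, and summed levels of 1872 and 7672 FPKM in the Cd73N libraries and of 356 and 581 FPKM in the Cd73P libraries. That no Müller glia marker was a member follows from the rule, since these genes are higher in Cd73N.

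Malt1, a paracaspase that activates NF-κB, was at 1.27 and 3.20 FPKM in Cd73N and at 5.50 and 9.61 FPKM in Cd73P. Tnip2, a binding partner of the NF-κB inhibitor A20, was at 1.84 and 3.27 FPKM in Cd73N and at 6.35 and 10.4 FPKM in Cd73P. Both were higher in Cd73P than in Cd73N in either genotype. Pde10a, a phosphodiesterase for cAMP and cGMP, was at 0.787 and 2.15 FPKM in Cd73N and at 0.542 and 2.82 FPKM in Cd73P, so its order between the fractions turned. Crlf3, a cytokine receptor-like protein, was at 10.8 and 19.7 FPKM in Cd73N and at 18.4 and 29.6 FPKM in Cd73P, and Rnf144b, a ubiquitin ligase, was at 4.15 and 6.90 FPKM and at 6.61 and 10.5 FPKM.

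Synaptic and secretory proteins among the members were Ptprn, Elfn1 and Grik4. Ptprn, a transmembrane protein of dense-core secretory vesicles (mm9 chr1:75243616-75260783, minus strand), was at 15.2 FPKM in Cd73N WT, 36.5 FPKM in Cd73N labelled Ezh2-cKO, 5.98 FPKM in Cd73P WT and 42.6 FPKM in Cd73P labelled Ezh2-cKO. In WT it was mainly a Cd73N transcript, whereas in those labelled Ezh2-cKO the Cd73P level slightly exceeded that of Cd73N. The log2 ratio was 1.21 (SE 0.042) in Cd73N and 2.64 (SE 0.068) in Cd73P, a difference of 1.43 (SE 0.080). Its paralog Ptprn2 went the other way in Cd73N (26.2 and 19.2 FPKM) and was higher in Cd73P (5.94 and 10.5 FPKM). Of 28 synaptic vesicle genes compared, Ptprn alone was higher in both fractions, while 3 were higher and 2 lower in Cd73N and 2 each way in Cd73P. The list's median log2 ratio was -0.19 in Cd73N and -0.069 in Cd73P.

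Elfn1, an adhesion protein of rod terminals that binds the glutamate receptor of bipolar dendrites, was at 5.94 FPKM in Cd73N WT, 12.1 FPKM in Cd73N labelled Ezh2-cKO, 28.7 FPKM in Cd73P WT and 45.4 FPKM in Cd73P labelled Ezh2-cKO. It was higher in Cd73P in both genotypes, and its rise was larger in Cd73N (log2 ratio 0.92, SE 0.061) than in Cd73P (0.65, SE 0.032). Zdbf2, Rbm20 and Dnahc7b also had a larger log2 ratio in Cd73N than in Cd73P. Grik4, a kainate receptor subunit, was at 1.56 and 3.48 FPKM in Cd73N and at 2.18 and 5.26 FPKM in Cd73P.

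Hist1h2bc, which encodes a histone H2B, was at 24.5 FPKM in Cd73N WT, 40.9 FPKM in Cd73N labelled Ezh2-cKO, 39.3 FPKM in Cd73P WT and 89.0 FPKM in Cd73P labelled Ezh2-cKO. In all 4 libraries its FPKM exceeded the upper bound given with it and its coding sequence has near-identical copies, so the value is uncertain. Frmpd1, a scaffold protein with FERM and PDZ domains (mm9 chr4:45197778-45298808, plus strand), was at 12.6, 24.1, 41.1 and 86.6 FPKM in the same order. Slc31a2, a copper transporter, was at 9.07, 16.9, 43.9 and 74.2 FPKM. For both genes each library labelled Ezh2-cKO was above its WT partner and Cd73P was above Cd73N.

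Cds1, the CDP-diacylglycerol synthase that supplies phosphoinositide synthesis, was at 4.85 FPKM in Cd73N WT, 8.19 FPKM in Cd73N labelled Ezh2-cKO, 37.6 FPKM in Cd73P WT and 70.4 FPKM in Cd73P labelled Ezh2-cKO. Asrgl1, an asparaginase found in photoreceptors, was at 10.5, 20.7, 23.1 and 47.0 FPKM in the same order. Fabp4, a fatty acid binding protein best known from fat cells, was at 2.22, 4.40, 8.20 and 13.2 FPKM. All 3 enzymes or carriers were Cd73P-enriched in WT already. Ptges, the prostaglandin E synthase, and Nmnat3, which makes NAD in mitochondria, belonged to the weaker members, at 4.17 and 2.46 FPKM in the Cd73P library labelled Ezh2-cKO.

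Proteins of the cytoskeleton, cell junctions, RNA binding and DNA repair made up a further group. Ocln, the tight junction protein occludin, was at 0.956 FPKM in Cd73N WT, 1.95 FPKM in Cd73N labelled Ezh2-cKO, 0.682 FPKM in Cd73P WT and 5.78 FPKM in Cd73P labelled Ezh2-cKO. Only the last of these stood apart from the others, and the log2 ratio was 0.59 (SE 0.090) in Cd73N and 2.01 (SE 0.087) in Cd73P. Rdm1, which carries a RAD52 motif, was at 2.65, 5.28, 12.4 and 20.4 FPKM in the same order, and Rbpms2, an RNA-binding protein of retinal ganglion cells and smooth muscle, at 2.29, 4.56, 6.58 and 12.4 FPKM. 2810030E01Rik, listed by RefSeq as Skida1, was at 8.39, 14.9, 11.7 and 20.8 FPKM and varied less between the libraries. Rbm20, an RNA-binding splicing regulator of heart muscle, was at 0.977 and 4.14 FPKM in Cd73N and at 3.58 and 6.37 FPKM in Cd73P.

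Noncoding RNAs and pseudogenes gave some of the largest rises and the least certain values. Vax2os1 and Vax2os2, transcripts antisense to the ventral eye homeobox gene Vax2 (Vax2os1 mm9 chr6:83652096-83660926), overlap each other. Vax2os1 was at 2.27 FPKM in Cd73N WT, 5.70 FPKM in Cd73N labelled Ezh2-cKO, 33.7 FPKM in Cd73P WT and 76.8 FPKM in Cd73P labelled Ezh2-cKO, and Vax2os2 was at 0.705, 1.60, 8.02 and 26.8 FPKM. Both were far higher in Cd73P than in Cd73N in each genotype, and they count reads of the same stretch. Gm11961, a processed transcript that overlaps another gene, followed the same order at 1.06, 2.46, 6.33 and 21.7 FPKM.

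Rmrp, the RNA of the RNase MRP enzyme, was at 2.43 FPKM in Cd73N WT, 6.33 FPKM in Cd73N labelled Ezh2-cKO, 1.91 FPKM in Cd73P WT and 37.2 FPKM in Cd73P labelled Ezh2-cKO. The last library stood far above the other 3, with a log2 ratio of 3.71 (SE 0.16) in Cd73P against 1.09 (SE 0.19) in Cd73N. Rprl3, which resembles the RNA of RNase P, was at 1.48, 4.59, 3.62 and 14.4 FPKM. Both are short RNAs without a poly(A) tail, Rmrp overlaps another gene, and in all 4 libraries their FPKM exceeded the upper bound given with it. Olfr1372-ps1, an odorant receptor pseudogene, was at 4.22, 11.9, 1.95 and 15.2 FPKM and overlaps another gene. Odorant receptor genes form a large family of similar sequences, and up to 50 hits per read were allowed in the alignment.

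The other named members with at least 5 FPKM in the Cd73P library labelled Ezh2-cKO were Zdbf2, an imprinted gene, Klk1b22, a kallikrein of a family of near-identical genes, Tmco3, Tmod1, a tropomodulin that caps actin filaments, Igf2bp2, an RNA-binding protein of growth factor transcripts, and 1700010K23Rik, at 5.06 to 9.84 FPKM in that library. A further 16 members were under 5 FPKM there. Besides Six4, Tmem30b, Bcl6, Pde10a, Ripk4, Ptges and Nmnat3 they were C4bp-ps1, 1190007F08Rik (Smim1 in RefSeq), Csn3, which encodes κ-casein, Dnahc7b, an axonemal dynein heavy chain, 4831426I19Rik, Olfr1383, Tmc6, Lrrc33 and Gm5150. Their FPKM spanned 0.030 to 1.45 in Cd73N WT, 0.707 to 4.72 in Cd73N labelled Ezh2-cKO, 0 to 2.49 in Cd73P WT and 0.814 to 4.92 in Cd73P labelled Ezh2-cKO. Gm5150 was the gene listed at 0 in Cd73P WT. In all, 11 members were under 1 FPKM in both WT libraries.

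The size of the rise was next compared between the fractions. The log2 ratio was larger in Cd73P for 40 members and larger in Cd73N for 16, and the median excess in Cd73P was 0.18. Past a 95% margin of counting SE, it was larger in Cd73P for 25 members and in Cd73N for 4. The difference lay within that margin for 27 members. The excess was widest for Rmrp (2.62, SE 0.25), Ptprn (1.43, SE 0.080), Ocln (1.42, SE 0.13), Tshz2 (1.39, SE 0.086) and Olfr1372-ps1 (1.16, SE 0.14). For Rmrp, Ptprn and Olfr1372-ps1 the FPKM exceeded the upper bound given with it in some libraries, so these SE are uncertain. The Rmrp level of 37.2 FPKM in Cd73P labelled Ezh2-cKO stood against an upper bound of 14.1 FPKM. The demand that Cd73P be higher than Cd73N in the libraries labelled Ezh2-cKO favours such an excess, so the numbers describe the selected genes.

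**Figure D2:**
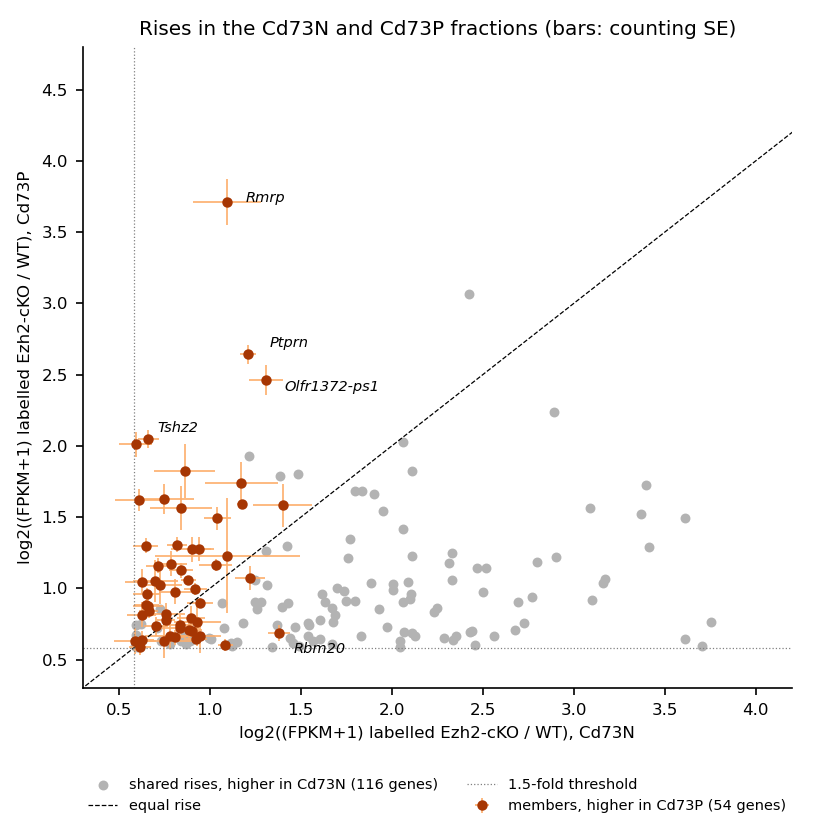
Log2 ratio of (FPKM + 1), labelled Ezh2-cKO over WT, in Cd73N (horizontal) and Cd73P (vertical) for 54 members with bars for counting SE and for the 116 genes that rose in both fractions but were not higher in Cd73P (grey). Of these members 38 lie above the line of equal rise, and Rmrp at 1.09 and 3.71 is highest among them on the vertical axis.

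The fractions were then compared within each genotype, since the rule used this order only in the libraries labelled Ezh2-cKO. In WT, 45 of the 56 members were higher in Cd73P and 11 were lower. The share of all genes higher in Cd73P by any margin was not computed, so nothing is read from these counts. At least 1.5-fold higher in Cd73P were 34 members in WT, where 9.28% of all genes were, and 36 members in the libraries labelled Ezh2-cKO, where 8.64% of all genes were. The rule fixed the order of the fractions in the libraries labelled Ezh2-cKO and used the WT values too, so nothing is read from either share. Vax2os1 (log2 ratio of Cd73P over Cd73N in WT 3.41, SE 0.080), Psd2 (3.22, SE 0.061) and Cds1 (2.72, SE 0.064) were the most Cd73P-enriched in WT.

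Of the 11 members that were lower in Cd73P than in Cd73N in WT, 10 are given here, namely Stk35, Ptprn, Rmrp, Olfr1372-ps1, Tshz2, Ocln, Olfr1383, Pde10a, Gm5150 and Six4. Of these Ptprn (-1.21, SE 0.072), Tshz2 (-1.24, SE 0.071) and Olfr1372-ps1 (-0.83, SE 0.12) were at least 1.5-fold lower. In the libraries labelled Ezh2-cKO the log2 ratios of the same 3 genes were 0.22, 0.15 and 0.33. These 3 genes were thus higher in Cd73P only in the libraries labelled Ezh2-cKO. Of the 45 members higher in Cd73P in WT, 34 were so by at least 1.5-fold. Tmc6 (0.10, SE 0.097), Tmco3 (0.12, SE 0.067) and 1190007F08Rik (0.17, SE 0.095) were within a 95% margin of counting SE from 0 in WT.

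**Figure D3:**
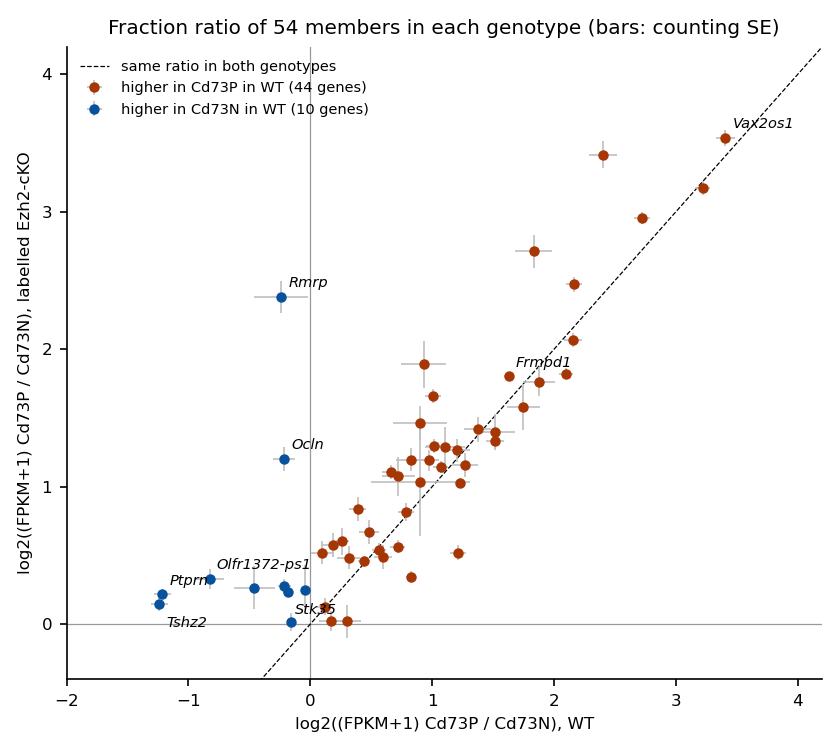
Log2 ratio of (FPKM + 1), Cd73P over Cd73N, in WT (horizontal) and in the libraries labelled Ezh2-cKO (vertical) for 54 members, with bars for counting SE and a dashed line where both are equal. All points are above 0 on the vertical axis by the rule, and the 10 members left of 0 in WT (blue) include Ptprn, Tshz2, Ocln and Rmrp.

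How far each fraction may have held RNA of the other was gauged with marker genes that were at least 8-fold apart between the fractions. Such a share also counts any expression of a marker by the other fraction's own cells. The 8-fold filter by itself keeps the shares low, and it held 24 of the 35 rod markers compared. Their level in Cd73N was 2.71% of that in Cd73P in WT and 2.42% in the libraries labelled Ezh2-cKO (medians). At a share of 2.42%, the Cd73P level would amount to 2.47% to 40.6% of a member's FPKM in Cd73N labelled Ezh2-cKO, with a median of 5.88%, and to more than 20% for Vax2os1, Cds1, Psd2, Vax2os2 and Gm11961. Over all 35 rod markers without the filter, a choice added after seeing the data, the median share was 5.69%, the corresponding range over the members was 5.80% to 95.3% with a median of 13.8%, and 15 members were over 20%. The highest of these values, 95.3%, was that of Vax2os2. The 35 markers include Guca1a, at 520 FPKM in Cd73N and 70.3 FPKM in Cd73P labelled Ezh2-cKO, which had the highest unfiltered share, 740%. At the highest share of the 24 filtered markers in labelled Ezh2-cKO, 11.6%, the range over the members was 11.8% to 194%, with a median of 28.1%. Vax2os1, Psd2, Vax2os2 and Gm11961 then exceeded 100%. In the opposite direction, Müller glia markers were at 3.64% of their Cd73N level in Cd73P labelled Ezh2-cKO (median of 18 genes), and at that share the Cd73N level would give 0.218% to 3.58% of a member's FPKM in Cd73P, with a median of 1.504%. The highest share of these 18 was 10.7%, and the filter held 18 of 21 Müller glia markers compared. Car2, which it left out, was at 445 FPKM in Cd73N and 215 FPKM in Cd73P labelled Ezh2-cKO. Values of the members at such higher shares were not computed in this direction.

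Of 35 rod markers compared, 6 were at least 1.5-fold higher and 0 lower in Cd73P, with a median log2 ratio of 0.34 and summed levels of 34393 FPKM in WT and 44578 FPKM in labelled Ezh2-cKO, and no rod marker was a member. In Cd73N their median log2 ratio was 0.025, with 0 higher and 9 lower. The share of all genes lower by that ratio was not computed, so nothing is read from counts of lower genes in any list. Immediate early genes, which cell dissociation raises, summed to 403 and 1677 FPKM in the Cd73N libraries and to 345 and 352 FPKM in the Cd73P libraries. Of these 22 genes, 14 were at least 1.5-fold higher and 0 lower in Cd73N, and 3 were higher and 2 lower in Cd73P. Bipolar markers were lower in both fractions (median log2 ratio -0.75 and -1.10). In sorted populations, fewer cells of a type and less RNA per cell cannot be told apart, and the part of these shifts in the members' rises was not tested.

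The genes closest to each limit, among those with at least 1 FPKM in any library, show how the selection was bounded. For the rise in Cd73N, Tnip2 (0.59), Ocln (0.59) and Vax2os2 (0.61) were just inside, and Nat1 (0.57), Traf3ip3 (0.57) and Cst3 (0.56) just outside. Cst3, the protease inhibitor cystatin C, was at 422 and 624 FPKM in Cd73N and at 1153 and 1801 FPKM in Cd73P and so was far more abundant than any member. For the rise in Cd73P, Rnf144b (0.59), Dnahc7b (0.60) and Tnip2 (0.63) were inside, and Ier3 (0.58), Gm1045 (0.55) and Pawr (0.54) outside. For the order of the fractions in the libraries labelled Ezh2-cKO, Nmnat3 (0.020), 1190007F08Rik (0.021) and Tmco3 (0.13) were inside, and Lnx2 (-0.086), Nrn1 (-0.21) and Hdhd3 (-0.29) outside. Nrn1, the neurite growth factor neuritin, was at 0.884 and 9.10 FPKM in Cd73N and at 0.047 and 7.75 FPKM in Cd73P, so it was under 1 FPKM in both WT libraries.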

How the data were processed

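Reads of 36 bases were converted with bcl2fastq 1.8.4, aligned to mm9 with TopHat2 2.0.8b and quantified with Cufflinks 2.1.1, per the submitters' processing notes and the study's methods. The deposited FPKM were computed by the authors per RefSeq gene with a lower and an upper bound and were not scaled between libraries. From 23021 table rows, FPKM of rows sharing a symbol were summed. Symbols of 724 small RNAs, 139 genes with a status other than OK and 984 genes off the numbered chromosomes were left out, which gave 20711 genes. A pseudocount of 1 was added, and the width of the bounds was taken as 4 SE. Of the members, 18 had an FPKM above the upper bound given with it in some library, so their SE is uncertain. Among them were Frmpd1, Slc31a2, Cds1, Psd2, Asrgl1, Elfn1, Crlf3, Rdm1 and Fabp4. Listed starts equalled GENCODE starts on mm9 after adding 1 for 10206 of 21166 symbols (638 without), and coordinates are given with 1 added. Reads were not counted by strand as far as the sources used here say, and 19 members overlap another GENCODE entry, which for Rprl3 is an RNase P RNA. Frmpd1, Asrgl1, Sik2 and Lrig1 are among these members, each overlapping a gene on the opposite strand.

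Samples were grouped by title. The members and lists were chosen with earlier results of these data known. Of the members 54 are named and 2 are not reported here, with values in each library for 24 of the 25 highest in Cd73P labelled Ezh2-cKO and for the named ones on a list, and with the 3 genes on each side of a threshold; further genes given with values were chosen after their values were seen. Alternatives were other pseudocounts, scalings, thresholds and filters; the use of the SE and the removal of genes above their bound or overlapping another gene were added after seeing the data. No test was possible with 1 library per group. Python 3.11.15 with numpy 2.4.6, pandas 2.3.3 and matplotlib 3.10.9 was used, and the scripts were tested on simulated data.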

Additional observations from a re-analysis of the deposited data

Results flagged for a closer look

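For 11 members, of which 10 are reported, the order of the fractions was opposite in the genotypes, lower in Cd73P than in Cd73N in WT and higher in the libraries labelled Ezh2-cKO. As log2 ratios of Cd73P over Cd73N in the libraries labelled Ezh2-cKO, with the WT value in parentheses, the 10 were Rmrp 2.38 (-0.24), Ocln 1.20 (-0.22), Olfr1372-ps1 0.33 (-0.83), Pde10a 0.28 (-0.21), Olfr1383 0.27 (-0.46), Gm5150 0.25 (-0.043), Stk35 0.23 (-0.18), Ptprn 0.22 (-1.21), Tshz2 0.15 (-1.24) and Six4 0.018 (-0.16). The rule required the first value to be above 0, and the differences were not tested. In labelled Ezh2-cKO, Six4 (SE 0.065), Gm5150 (SE 0.18) and Olfr1383 (SE 0.15) were within a 95% margin of counting SE from 0. In WT, Rmrp (SE 0.22) and Gm5150 (SE 0.025) were within that margin, so the order of these genes is not settled. Ocln, Olfr1372-ps1, Pde10a, Stk35, Ptprn and Tshz2 lay beyond it in both genotypes.

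Ezh2, which is not a member, changed in opposite directions between the fractions, with a log2 ratio of labelled Ezh2-cKO over WT of -0.52 in Cd73P and 0.17 in Cd73N. This difference was not tested either, since each group had 1 library.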

How the results depend on the processing

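The number of members depended most on the pseudocount. It was 56 as reported, 157 with a pseudocount of 0.1 (all 56 kept) and 9 with a pseudocount of 5. A 2-fold threshold gave 12, FPKM of at least 10 in Cd73P labelled Ezh2-cKO gave 27, and a 1.5-fold excess of Cd73P over Cd73N gave 36. With choices added after seeing the data, 25 passed both thresholds by a 95% margin of counting SE and 37 remained without overlapping genes. Of the members higher in Cd73P in WT there were 45 as reported, 129 with a pseudocount of 0.1 and 4 with a pseudocount of 5. Dropping the pseudocount while requiring every library to reach 1 FPKM gave 46 (32 kept), and these changes were made together. Small RNAs brought the number to 77, scaling by the median ratio to 64 and by the FPKM sum to 66 (54 of the 56 kept). These scalings shifted the log2 ratios of all genes by 0.068 and 0.15 in Cd73N and by 0.034 and -0.048 in Cd73P. With a pseudocount of 5, 13 of the 56 stayed at least 1.5-fold higher in Cd73N and 28 in Cd73P. No paired analysis was possible because each group had 1 library and the labels give no replicate numbers, and leaving out a replicate was not possible either. Absolute depth is unknown, so no limit can be set on values listed at or near 0.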
